A study of Zea mays with 12 samples.

Results

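The WRKY transcription factor genes of maize described here are the genes whose NR or Swiss-Prot description in the deposited table contained WRKY, 139 of 52932 genes in all. The word stood in both descriptions for 74 members, in the Swiss-Prot description only for 51 and in the NR description only for 14. The Pfam WRKY DNA-binding domain was listed for 122 of the 139. Another 5 members were VQ proteins whose NR description reads "DNA-binding WRKY", and 12 had neither domain, so the rule also took in genes that are not WRKY factors by domain. Outside the members, 3 genes carried the Pfam domain. The names used below are those of the closest Swiss-Prot protein, mostly of Arabidopsis or rice, and a member is placed in the family group of that protein. They are not maize gene names, and several members share the same one.

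The family is named after a short, nearly invariant run of amino acids in their DNA-binding domain, which is followed by a zinc finger. They bind the W-box, a short DNA element found in the promoters of many defence genes, and many WRKY genes are themselves switched on within the same responses. They are sorted by the number of WRKY domains and by the zinc finger into group I, groups IIa to IIe and group III. MAP kinases phosphorylate some of them, VQ proteins bind them, and depending on the member they activate or repress defence, senescence and hormone responses.

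The 12 libraries were made from RNA of whole maize plants (Zea mays) and form 4 groups of 3. The groups were BV-3 susceptible, CK susceptible, BV-3 resistant and CK resistant, where BV-3 is a strain of the bacterium Bacillus velezensis, CK is the control, and susceptible or resistant is the disease class in the labels. Each library is labelled as its own biological sample. The titles of the CK libraries carry the code 986 in the susceptible and 801 in the resistant class, and those of the BV-3 libraries carry gan and kang, none of which the labels explain. Plant age and harvest time are not given. Total counts ranged from 32.3 to 37.8 M in BV-3 susceptible, 30.4 to 36.0 M in CK susceptible, 35.1 to 37.4 M in BV-3 resistant and 27 to 30.2 M in CK resistant libraries.

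Some libraries went against their labels or stood apart. Of 246 genes found in the BV-3 libraries of the susceptible class and not of the resistant class, the libraries labelled CK susceptible 2 and 3 had 0.813 and 1.63% above 1 CPM, the count scaled to library size, whereas CK susceptible 1 had 98.0%. Of 339 genes with the opposite pattern, CK susceptible 2 and 3 had 94.4 and 95.0%. Libraries are grouped below by their labels. The library labelled CK resistant 2 had a summed level of 9 green leaf genes (chlorophyll a-b binding proteins and the Rubisco small subunit) of 307.7 FPKM (the authors' unit, fragments scaled to gene length and library size). The sum was 3011.5 to 7277.0 FPKM in BV-3 susceptible against 7636.8 to 11198 in CK susceptible libraries, without overlap, and 2695.0 to 9701.6 in BV-3 resistant against 2836.0 and 3850.5 in the other CK resistant libraries. The 17 root genes summed to 37.9 to 47 FPKM in BV-3 resistant, 24.5 to 34.8 in CK resistant, 9.24 to 16.4 in BV-3 susceptible and 17.0 to 21.8 in CK susceptible libraries. The 62 dividing tissue genes (cyclins and kinesins) summed to 789.0 FPKM in CK resistant 2, the highest of all libraries. They summed to 322.9 and 425.3 FPKM in CK resistant 1 and 3 and to 384.3 to 545.4 in BV-3 resistant libraries. In the susceptible class the sums were 274.6 to 315.1 FPKM with BV-3 and 226.7 to 321.2 with CK. The 4 matches to the morning clock regulator LHY summed to 487.0 to 2311 FPKM in BV-3 susceptible against 134.3 to 255.1 in CK susceptible libraries, and to 1206 to 2954 in BV-3 resistant against 73.9 to 172.7 in CK resistant libraries, with no overlap. Of these matches, NewGene_6153 (mean 4.59 FPKM) went the other way, with log2 fold changes of -8.43 in susceptible plants (edgeR, adjusted p = 0.0426) and -0.66 in resistant plants. The other matches averaged 218.3 to 455.2 FPKM and had positive fold changes in both classes. The 4 matches to evening clock genes stood at 328.0 FPKM in BV-3 susceptible 3 and at 8.85 to 35.9 FPKM in the other 11 libraries. The part of leaf, root and dividing tissue content, clock state and plant line in the WRKY results was not tested. In whole plants, fewer cells of a type and less RNA per cell cannot be told apart.

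The WRKY genes spanned a wide range of levels. Their mean over the 12 libraries was at least 100 FPKM for 6 members, 10 to 100 for 34, 1 to 10 for 56 and under 1 for 43, with a median of 2.89 FPKM. The 8 highest held 59.6% of the summed FPKM of the family. The filter on low counts kept 128 members, 113 of them with the WRKY domain, and the other 11 were not tested, 2 of these having no count in any library.

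Summed over all 139 members, the level was 4142, 4456 and 2799 FPKM in the BV-3 susceptible libraries, against 1606, 1053 and 1122 FPKM in the CK susceptible libraries. In the resistant class the sums were 3238, 2536 and 1983 FPKM under BV-3, against 1928, 656.1 and 2226 FPKM under CK. The susceptible groups did not overlap, whereas CK resistant 3 lay above BV-3 resistant 3. CK resistant 2, which also had the low leaf sum, had the lowest value of all libraries for 51 of the 96 tested members with a mean of at least 1 FPKM. Between 90 and 99 members reached 1 FPKM in BV-3 susceptible libraries against 72 to 79 in CK susceptible ones, and 89 to 104 did in BV-3 resistant against 62 to 87 in CK resistant libraries.

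**Figure D1:**
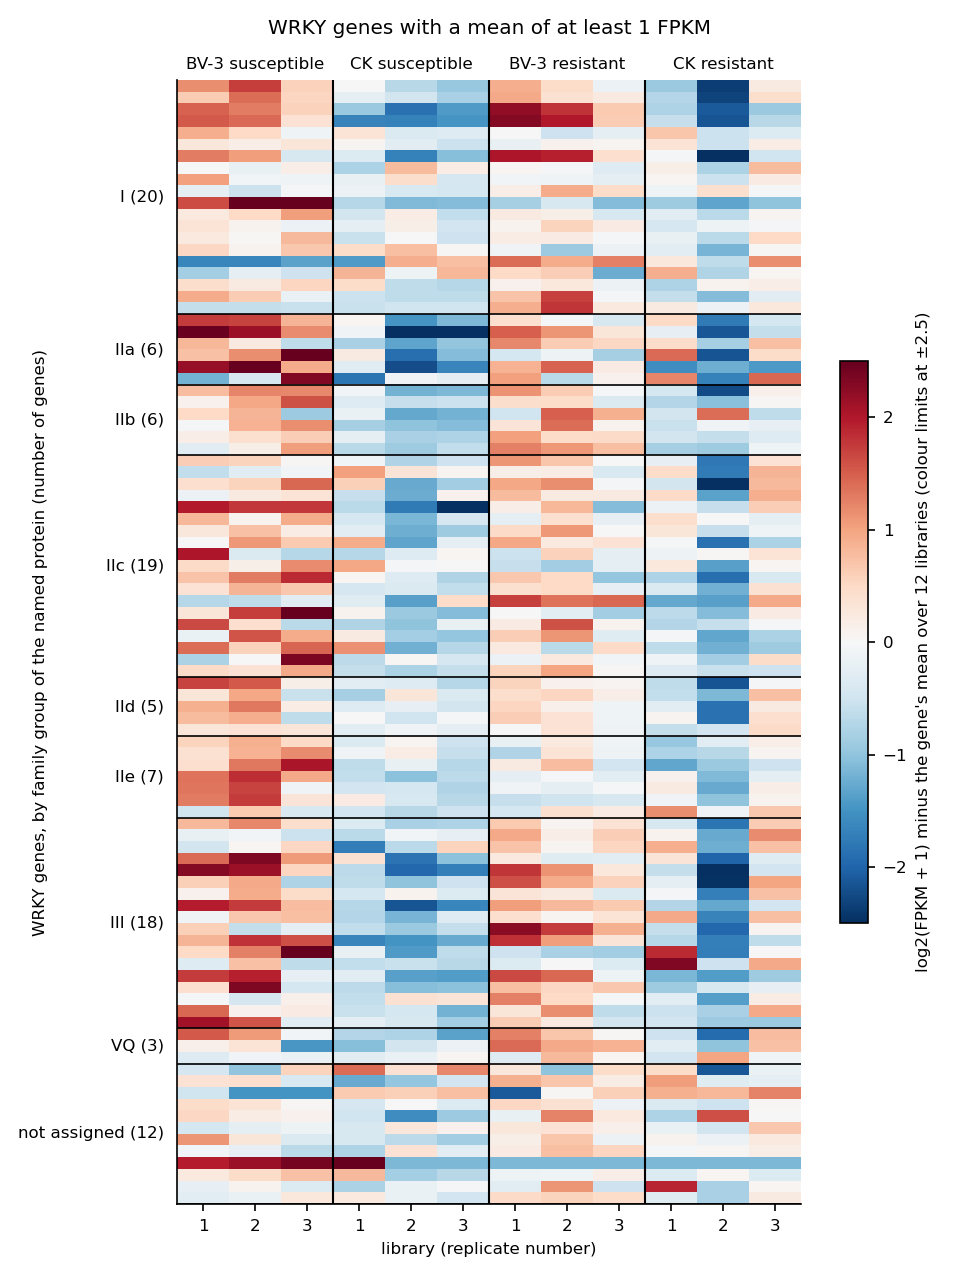
Each row is one of the 96 tested WRKY genes with a mean of at least 1 FPKM, each column a library, and the colour is log2(FPKM + 1) minus the gene's mean over the 12 libraries, limited to ±2.5. Rows are ordered by the family group of the named protein, with the number of genes in brackets. Most BV-3 libraries are redder than the CK libraries, and CK resistant 2 is the bluest column. CK resistant 3 is an exception. Its median over the 128 tested members was 0.05, against 0.04 in BV-3 resistant 3.

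The response of susceptible plants to the bacterium is addressed by BV-3 susceptible against CK susceptible. With edgeR's quasi-likelihood test and an adjusted p under 0.05 over all 34291 genes, 13 of 128 tested WRKY genes were higher under BV-3 (10.2%), against 2.3% of all genes tested. Only the helicase-like Zm00001eb347870 was lower (0.781%, against 3.9% of all genes). The median log2 fold change of the tested members was 1.41, against 0.07 over all genes, and 1.39 with the 5 members that had no count in one group set at a bound of 3 counts per library. In 61 members (47.7%) every BV-3 library was above every CK library, against 18.6% of all genes, and in 6 (4.69%) every BV-3 library was below, against 14.1%.

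The libraries labelled CK susceptible 2 and 3 lay with the resistant class by the line markers. With them in the fit, BV-3 and plant line cannot be told apart in this comparison. These libraries bear on the calls. Without them 1 CK susceptible library remained, no WRKY gene was called by edgeR (17 at an unadjusted p under 0.05), and the median was 1.17. All 14 called members kept their direction, and the log2 fold changes of the 13 higher ones were between 2.17 and 5.19 without these libraries, against 2.09 to 6.04 with them. Leaving out 1 library at a time, edgeR called 32 members without CK susceptible 1 (24.4%, against 19.5% of all genes), 41 without CK resistant 2 (31.3%, against 14.9%) and none without any one of the other 10 libraries, although each of the 14 kept its direction. Against CK susceptible 1 alone, all 3 BV-3 susceptible libraries were higher for 76 members (59.4%), against 31.3% of all genes.

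In resistant plants, no WRKY gene was called for BV-3 against CK by edgeR, and none of the 34291 genes was (0.0%). At an unadjusted p under 0.05 there were 26 members (20.3%), against 10.1% of all genes, and DESeq2 called 9, all higher (7.03%, against 3.04% of all genes in either direction). The median log2 fold change was 0.64, against -0.07 over all genes. Every BV-3 library was above every CK library in 30 members (23.4%), against 7.71% of all genes, and below in 1 (0.781%), against 9.46%. The median was 0.91 without CK resistant 1, 0.66 without CK resistant 2 and 1.15 without CK resistant 3, against -0.04, 0.01 and -0.01 over all genes. Without CK resistant 2, 35 members (27.3%) had all BV-3 libraries above both others, against 13.3% of all genes.

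The comparisons within each class share no library. In 18 members (14.1%) the BV-3 libraries were above the CK libraries without overlap in both classes, against 2.69% of all genes. The opposite held for 1 member (0.781%), against 2.83%: Zm00001eb068980, an NR match to WRKY19 without the WRKY domain, at 9.17, 4.14 and 4.15 FPKM in BV-3 susceptible against 21.7, 20.8 and 23.3 in CK susceptible libraries, and 2.38, 13.8 and 20.8 in BV-3 resistant against 25.7, 24.5 and 32.9 in CK resistant ones. It was called in neither class (edgeR, adjusted p = 0.0613 and 0.534). All 13 members called higher in susceptible plants had a positive log2 fold change in resistant plants, and 10 of them had no overlap there. Among all genes tested, 43.8% were positive and 7.71% were higher without overlap in resistant plants. The shares among all genes called higher in susceptible plants are not given here. With the effects of both classes averaged, 17 members were called higher by edgeR (13.3%), against 2.48% of all genes, and 2 lower (1.56%), against 2.9%. Of the 14 members called in susceptible plants, 13 were among these 19, and both comparisons use the same susceptible libraries. Without CK susceptible 2 and 3, edgeR called none for this mean (35 at an unadjusted p under 0.05), and the median was 0.98, against 1.10 with all libraries.

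**Figure D2:**
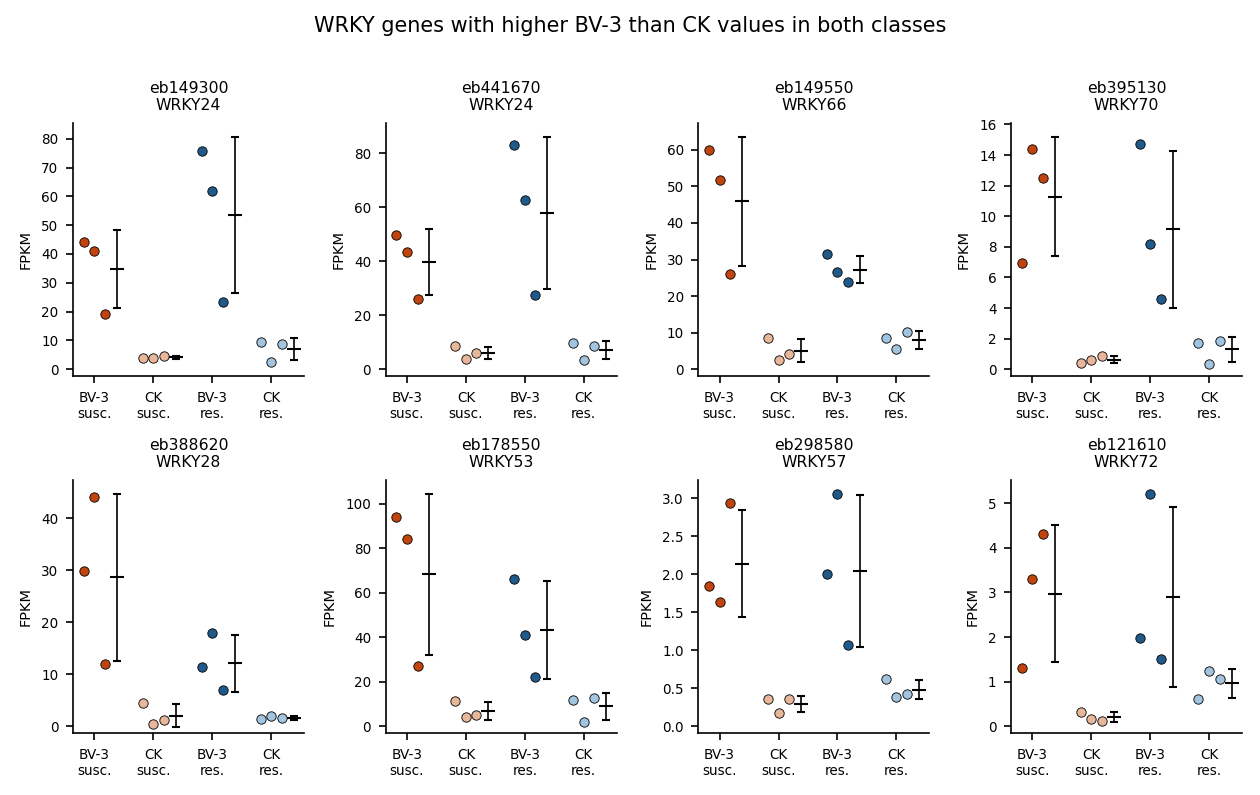
FPKM in every library for 8 WRKY genes, with the points of a group in replicate order and the mean ± SD (n = 3) beside them, the bar ending at 0 where it would go below. The 8 genes were picked from the 18 members in which the 3 BV-3 libraries lie above the 3 CK libraries in both classes.

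Group I proteins carry an extra WRKY domain, and in rice WRKY24 represses gibberellin and abscisic acid signalling in the aleurone. The family held 6 matches to rice WRKY24. Zm00001eb149300 had 44.1, 40.9 and 19.2 FPKM in BV-3 susceptible against 3.94, 3.84 and 4.66 in CK susceptible libraries. In resistant plants it had 75.6, 61.7 and 23.2 FPKM in the BV-3 libraries against 9.47, 2.52 and 8.69 FPKM in the CK libraries. The groups did not overlap in either class, although replicate 3 was the lowest of each BV-3 group. The log2 fold change was 3.04 ± 0.59 in susceptible plants (edgeR, adjusted p = 0.0398) and 3.02 ± 0.59 in resistant plants (adjusted p = 0.254), where it was not called. Its partner Zm00001eb441670 bears the same gene symbol, so reads may be divided between them. It had 49.8, 43.4 and 26.1 FPKM in BV-3 susceptible against 8.51, 3.98 and 5.86 in CK susceptible libraries, and 83.2, 62.8 and 27.6 in BV-3 resistant against 9.73, 3.26 and 8.53 in CK resistant libraries. Its log2 fold change was 2.67 ± 0.56 in susceptible plants (edgeR, adjusted p = 0.0398) and 3.08 ± 0.56 in resistant plants (adjusted p = 0.254), the smallest p of any member there. These were the only WRKY24 matches called. The more abundant Zm00001eb286490 and Zm00001eb350280 averaged 298.0 ± 116.8 and 232.8 ± 82.6 FPKM in BV-3 susceptible against 89.8 ± 33.1 and 88.5 ± 17.5 in CK susceptible libraries (SD, n = 3), with log2 fold changes of 1.70 ± 0.62 and 1.38 ± 0.59 that were not called (edgeR, adjusted p = 0.113 and 0.165). The matches to SUSIBA2, in barley a regulator of sugar signalling and starch synthesis, had log2 fold changes between -0.22 and 0.47 in susceptible plants and none was called. Of the 23 group I members tested, 3 were called in susceptible plants, all higher, with a median of 0.81. Over all genes, 2.3% were called higher and the median was 0.07.

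The remaining group I call was Zm00001eb052670, named for Arabidopsis WRKY1. It had 6.81, 14.7 and 43.3 FPKM in BV-3 susceptible libraries against 0.537, 0.165 and 0.188 in CK susceptible ones, whereas all 3 BV-3 resistant libraries were at or below 0.895 and all CK resistant libraries at or below 0.352 FPKM. The BV-3 susceptible libraries were uneven, the third holding more than the other two together. Its log2 fold change was 6.04 ± 1.19 in susceptible (edgeR, adjusted p = 0.0398) and 1.26 ± 1.04 in resistant plants (adjusted p = 0.702). The difference of the effects, -4.77 ± 1.49 for resistant minus susceptible, was not called (adjusted p = 0.235). Without CK susceptible 2 and 3 its fold change in susceptible plants was 5.19 on the log2 scale and was not called (adjusted p = 0.749).

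Group IIa held the most abundant WRKY gene. In rice, proteins of this group such as WRKY28, WRKY62 and WRKY76 dampen defence against pathogens, and WRKY71 represses gibberellin signalling. Zm00001eb234120, a match to WRKY71, had 1162, 1110 and 621.6 FPKM in BV-3 susceptible against 353.8, 123.4 and 156.2 in CK susceptible libraries, without overlap. In resistant plants it had 458.4, 336.1 and 258.7 FPKM with BV-3 and 482.5, 99.9 and 251.1 with CK, and the groups overlapped. The log2 fold changes were 2.16 ± 0.69 (edgeR, adjusted p = 0.0791) and 0.39 ± 0.66 (adjusted p = 0.887), and neither was called. Zm00001eb275080, a match to WRKY28, had 553.2, 439.6 and 228.2 FPKM in BV-3 susceptible against 93.3, 10.8 and 15.8 in CK susceptible libraries. It had 281.5, 215.6 and 123.3 FPKM in BV-3 resistant against 85.9, 21.8 and 65.6 in CK resistant libraries. Neither class overlapped, and it was called for the mean of both classes (log2 fold change 2.60 ± 0.61, edgeR adjusted p = 0.0425) and not in susceptible plants alone (3.30 ± 0.88, adjusted p = 0.051). CK susceptible 1 was the highest CK library, and without CK susceptible 2 and 3 the mean effect was 1.99 (adjusted p = 0.308).

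The other WRKY28 match of rice, Zm00001eb388620, had 29.9, 44 and 12.0 FPKM in BV-3 susceptible against 4.53, 0.465 and 1.17 in CK susceptible libraries, and 11.5, 17.9 and 6.90 in BV-3 resistant against 1.34, 1.93 and 1.53 in CK resistant ones. It was called in susceptible plants (3.75 ± 0.79, edgeR adjusted p = 0.0401), and its fold change without CK susceptible 2 and 3 was 2.60 on the log2 scale. Zm00001eb312870 and Zm00001eb312890, matches to rice WRKY76 and WRKY62, averaged 44.7 ± 32.2 and 9.45 ± 12.8 FPKM in BV-3 susceptible against 7.91 ± 6.59 and 2.51 ± 1.81 in CK susceptible libraries. In resistant plants they averaged 9.31 ± 2.47 and 5.33 ± 3.64 FPKM in the BV-3 libraries against 19.0 ± 17.2 and 8.08 ± 6.57 FPKM in the CK libraries, and neither was called in either class (edgeR, adjusted p of at least 0.12). All 7 group IIa members tested had a positive log2 fold change in susceptible plants, with a median of 2.47 and 1 call, and 4 of the 7 did in resistant plants, with a median of 0.39. Positive values were seen in 85.9 and 78.9% of all tested WRKY genes in susceptible and resistant plants, against 52.3 and 43.8% of all genes. In susceptible plants 2.3% of all genes were called higher.

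**Figure D3:**
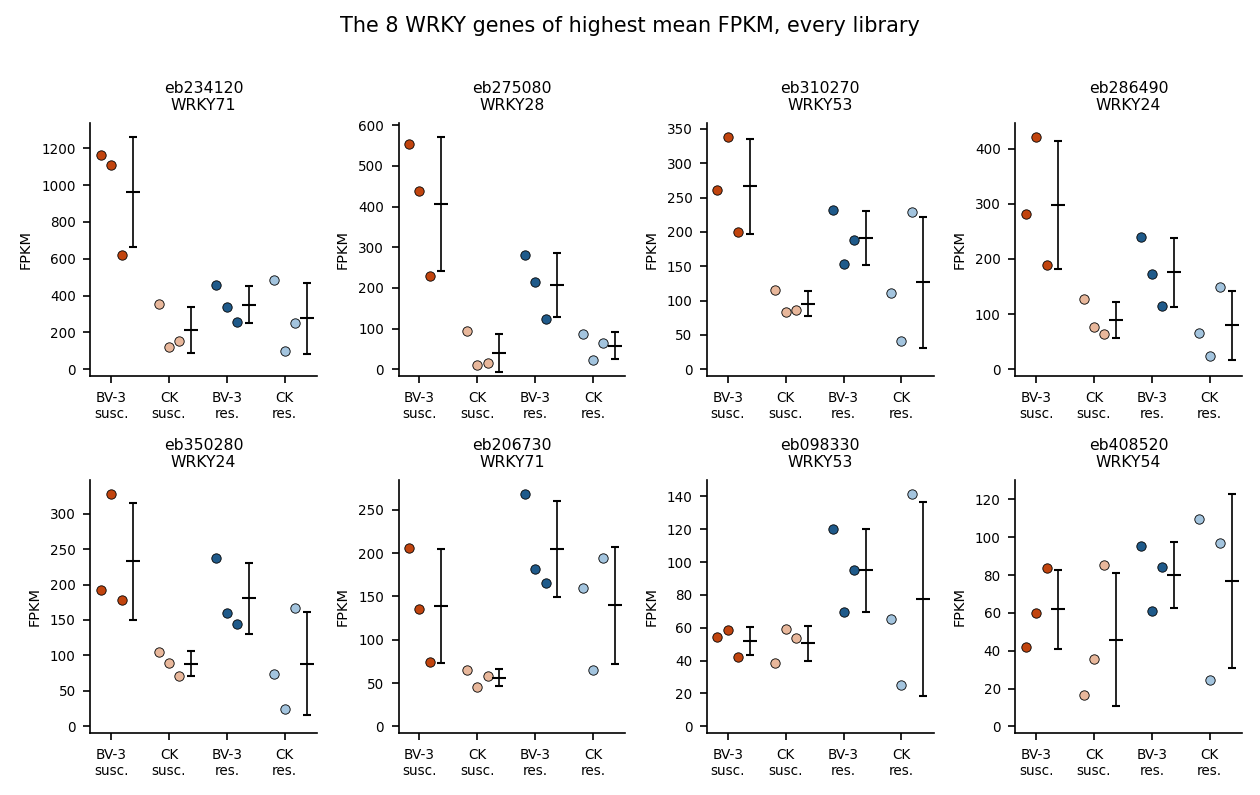
FPKM in every library for the 8 WRKY genes of highest mean level, drawn as points in replicate order with the mean ± SD (n = 3), the bar ending at 0 where it would go below. The BV-3 susceptible libraries lie above the CK susceptible ones in 6 of the 8 panels, and the 2 matches to WRKY53 (Zm00001eb098330) and WRKY54 (Zm00001eb408520) show overlapping groups.

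Group III includes Arabidopsis WRKY70, which links salicylate to jasmonate signalling, and WRKY53, a regulator of leaf senescence. Zm00001eb395130, which Swiss-Prot matched to WRKY70 and NR to WRKY46, had 6.94, 14.4 and 12.5 FPKM in BV-3 susceptible against 0.408, 0.576 and 0.857 in CK susceptible libraries. In resistant plants it had 14.7, 8.19 and 4.57 FPKM with BV-3 and 1.72, 0.358 and 1.84 with CK. Neither class overlapped, and the log2 fold changes were 4.15 ± 0.73 in susceptible (edgeR, adjusted p = 0.0394) and 2.90 ± 0.69 in resistant plants (adjusted p = 0.332, not called). Without CK susceptible 2 and 3 the first of these was 4.71. Zm00001eb149550, a match to WRKY66, had 59.9, 51.8 and 26 FPKM in BV-3 susceptible against 8.64, 2.5 and 4.08 in CK susceptible libraries, and 31.4, 26.5 and 23.9 in BV-3 resistant against 8.46, 5.46 and 10.3 in CK resistant ones. Its log2 fold change of 3.13 ± 0.51 in susceptible plants had the smallest adjusted p of all members there (edgeR, 0.0378) and was 2.35 without CK susceptible 2 and 3, and it was 1.84 ± 0.49 in resistant plants (adjusted p = 0.336). The other WRKY66 match, Zm00001eb368850, was called in susceptible plants (3.46 ± 0.88, edgeR adjusted p = 0.0471) on uneven values of 2.72, 13 and 1.05 FPKM in BV-3 susceptible against 0.772, 0.331 and 0.372 in CK susceptible libraries.

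The 8 matches to WRKY53 did not behave alike. For the mean of both classes edgeR called 2 of them higher. These were Zm00001eb178550 (2.84, edgeR adjusted p = 0.0297) and Zm00001eb376400 (2.96, adjusted p = 0.049). Without CK susceptible 2 and 3 these mean effects were 2.46 and 2.63. Zm00001eb178550 had 93.8, 84.2 and 27 FPKM in BV-3 susceptible against 11.4, 3.97 and 4.91 in CK susceptible libraries, and 66.3, 41 and 22.2 in BV-3 resistant against 11.9, 1.92 and 12.9 in CK resistant ones, and was called in susceptible plants (3.31 ± 0.80, edgeR adjusted p = 0.0438; 2.54 without CK susceptible 2 and 3). The abundant Zm00001eb098330 averaged 51.9 ± 8.75 FPKM in BV-3 susceptible against 50.5 ± 10.7 in CK susceptible libraries, a log2 fold change of 0.03 ± 0.50 (adjusted p = 0.980). Zm00001eb406000 had 5.00, 9.18 and 23.2 FPKM in BV-3 susceptible against 2.75, 0.590 and 1.74 in CK susceptible libraries, while in resistant plants it had 1.99, 1.41 and 1.33 under BV-3 against 14.6, 0.288 and 3.31 under CK. The difference of its effects, resistant minus susceptible, was -4.75 ± 1.57 and was not called (edgeR, adjusted p = 0.247). Group III had 22 members tested, of which 4 were called higher in susceptible plants, 15 were higher there without overlap, and the median log2 fold change was 2.31, against 0.64 in resistant plants. Of all genes tested, 2.3% were called higher and 18.6% were higher without overlap in susceptible plants.

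Group IIb includes Arabidopsis WRKY6 and WRKY42, which act in phosphate homeostasis and senescence, and WRKY72, which contributes to basal defence in Arabidopsis and tomato. All 9 members tested had a positive log2 fold change in resistant plants (median 1.6), as did 8 of 9 in susceptible plants (median 1.93). Over all genes, 43.8% were positive in resistant and 52.3% in susceptible plants. Zm00001eb121610, a match to WRKY72, had 1.31, 3.30 and 4.31 FPKM in BV-3 susceptible against 0.332, 0.175 and 0.110 in CK susceptible libraries, and was called there (3.77 ± 0.69, edgeR adjusted p = 0.0398), with 3.06 without CK susceptible 2 and 3. It had 1.97, 5.21 and 1.5 FPKM in BV-3 resistant against 0.603, 1.23 and 1.05 in CK resistant libraries, without overlap and not called (1.6 ± 0.63, adjusted p = 0.455). Zm00001eb129690, a match to WRKY47, was called for the mean of both classes (2.01 ± 0.43, edgeR adjusted p = 0.0348), with 2.01 ± 0.459 FPKM in BV-3 susceptible against 0.522 ± 0.368 in CK susceptible libraries and 2.66 ± 0.861 in BV-3 resistant against 0.662 ± 0.157 in CK resistant ones (SD, n = 3). Zm00001eb296130, a match to WRKY42, was called for the same mean (4.89 ± 1.12, adjusted p = 0.0465) at low levels: 4.10, 1.34 and 0.528 FPKM in BV-3 susceptible against 0.184, 0 and 0.0457 in CK susceptible libraries, and at most 0.0732 FPKM in the resistant class. The CK resistant libraries had no count of it, so its fitted resistant effect depends on the prior count. The 3 matches to WRKY6 had log2 fold changes of 1.85 to 3.52 in susceptible plants, and none was called there. Their BV-3 libraries were above the CK libraries without overlap, against 18.6% of all genes. One of the 3 matches, Zm00001eb417490, was called for the mean of both classes (1.49, edgeR adjusted p = 0.0494).

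Of 27, 6 and 16 tested members of groups IIc, IId and IIe, edgeR called 2, 0 and 2 in susceptible plants, all higher. Over all genes, 2.3% were called higher. In Arabidopsis, the group IIc proteins WRKY50 and WRKY51 mediate repression of jasmonate responses by salicylate, and WRKY57 acts in drought tolerance. Zm00001eb337270, a match to WRKY50, had 30.7, 26.1 and 26.1 FPKM in BV-3 susceptible against 3.99, 1.35 and 0.0853 in CK susceptible libraries, a log2 fold change of 3.90 ± 0.99 (edgeR, adjusted p = 0.0470), which was 2.73 without CK susceptible 2 and 3. In resistant plants it had 8.01, 13.3 and 2.76 FPKM with BV-3 and 6.26, 4.39 and 11.2 with CK, overlapping and with a log2 fold change of 0.18 ± 0.88. The difference of the effects, -3.72 ± 1.29, was not called (adjusted p = 0.262). Zm00001eb298580, a match to WRKY57, had 1.84, 1.63 and 2.94 FPKM in BV-3 susceptible against 0.355, 0.174 and 0.356 in CK susceptible libraries and was called there (2.61 ± 0.58, adjusted p = 0.0426), with 2.00, 3.06 and 1.07 in BV-3 resistant against 0.622, 0.389 and 0.429 in CK resistant ones. The 3 matches to WRKY75, which in Arabidopsis acts in phosphate starvation and senescence, counting names in either description, had positive fold changes in both classes and no call.

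In group IIe, Arabidopsis WRKY22 acts downstream of the flagellin receptor. Zm00001eb203940, a match to WRKY27, had 10.6, 15.3 and 7.70 FPKM in BV-3 susceptible against 1.95, 1.24 and 1.87 in CK susceptible libraries, a log2 fold change of 2.69 ± 0.50 (edgeR, adjusted p = 0.0398). In resistant plants it had 2.85, 3.40 and 2.73 FPKM with BV-3 and 3.87, 1.10 and 2.82 with CK, with a log2 fold change of 0.25 ± 0.47. The difference of its effects was -2.45 ± 0.68 and was not called (adjusted p = 0.232). Zm00001eb154170, a match to WRKY69, was called in susceptible plants (2.09 ± 0.46, edgeR adjusted p = 0.0425) with 10.1, 19.8 and 33.1 FPKM in BV-3 susceptible against 4.32, 6.28 and 4.09 in CK susceptible libraries, and had 8.63, 13.1 and 4.92 in BV-3 resistant against 2.37, 3.37 and 4.79 in CK resistant ones. Zm00001eb344810, which Swiss-Prot matched to WRKY35, was one of the members lower for the mean of both classes (-3.31 ± 0.81, edgeR adjusted p = 0.0464), with 0.120, 0.286 and 0.0486 FPKM in BV-3 susceptible against 0.935, 4.23 and 1.72 in CK susceptible libraries, and 0.0322, 0.188 and 0.249 in BV-3 resistant against 2.35, 0.115 and 1.18 in CK resistant ones. Group IId, which includes the calmodulin-binding WRKY11, a negative regulator of defence in Arabidopsis, had 6 members tested. All had positive fold changes in susceptible plants (median 0.99), against 52.3% of all genes.

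Among the members outside these groups, Zm00001eb347870 was the other gene lower under BV-3, in susceptible plants (edgeR, adjusted p = 0.0431) and for the mean (adjusted p = 0.0468). Swiss-Prot matched it to WRKY19, NR to a PIF1 helicase, and it had no WRKY domain. No count was seen in the 3 BV-3 susceptible libraries, against 0.0386, 0.446 and 0.518 FPKM in the CK susceptible ones, which is at least 6.81-fold lower when the empty libraries are set at 3 counts each. The fitted log2 fold change, which is no bound, was -7.43 with all libraries and -4.82 without CK susceptible 2 and 3. The value was lowest in CK susceptible 1, and the resistant libraries had 0.0327 to 0.496 FPKM under BV-3 and 0.288 to 0.958 under CK. Zm00001eb293830 and Zm00001eb353330, the more abundant of the VQ proteins, averaged 26.4 ± 13.6 and 10.9 ± 6.26 FPKM in BV-3 susceptible against 6.30 ± 1.59 and 8.20 ± 2.80 in CK susceptible libraries, and no VQ member was called.

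**Figure D4:**
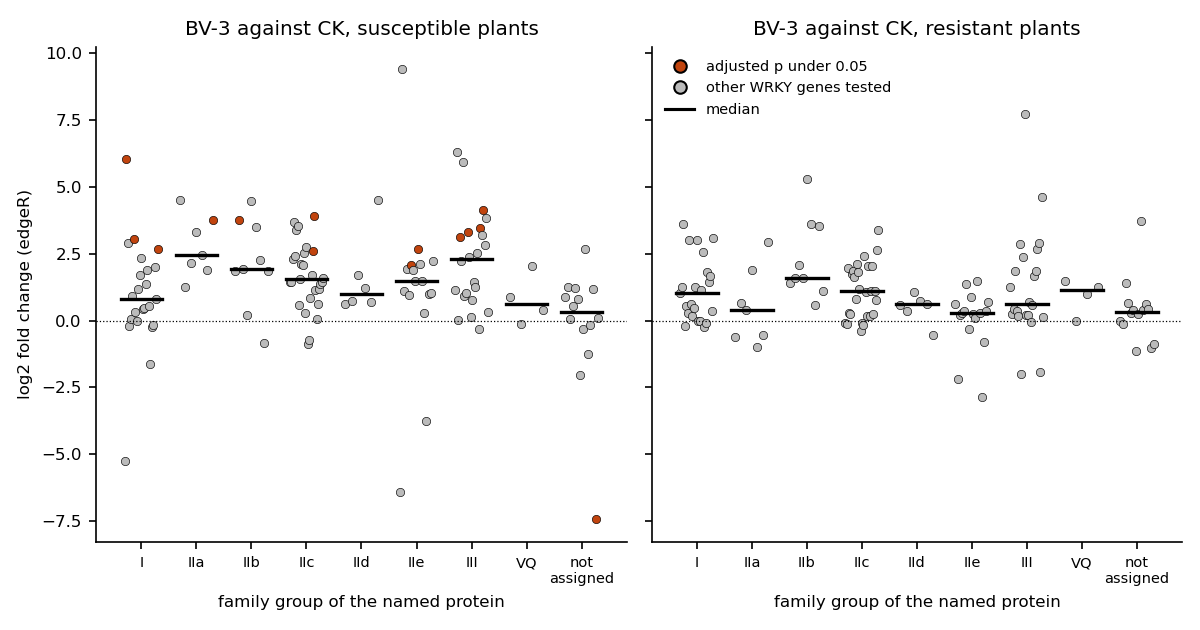
Log2 fold change (edgeR) of BV-3 against CK for the 128 tested members, by family group of the named protein, in susceptible (left) and resistant plants (right). Filled red points are members with an adjusted p under 0.05, which occur in susceptible plants alone, and black bars are medians. Fitted values of members with no count in one group depend on the prior count.

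The dependence of the BV-3 response on disease class is addressed by the difference of the 2 effects, resistant minus susceptible. It uses CK susceptible 2 and 3, so BV-3 and plant line cannot be told apart in it either. No WRKY gene was called by edgeR, nor any other gene (0.0%), and DESeq2 called 5 (3.91%), against 4.95% of all genes. Without CK susceptible 1 edgeR called 3 members (2.29%), against 5.84% of all genes. At an unadjusted p under 0.05 there were 17 members (13.3%), against 13.7% of all genes. The median difference was -0.46, against -0.13 over all genes. It was -0.24 without CK susceptible 2 and 3 (all genes -0.21), -0.77 without CK susceptible 1 (-0.22) and -0.09 without CK resistant 3 (-0.05), and over all fits without 1 library it lay between these last 2 values. The members of smallest p with at least 1 FPKM in a group were Zm00001eb203940, Zm00001eb025220, Zm00001eb020400, Zm00001eb052670, Zm00001eb406000 and NewGene_7415. Without CK susceptible 2 and 3, the difference was 2.37 for Zm00001eb020400 (6.31 with all libraries) and 0.64 for NewGene_7415 (7.04), and for Zm00001eb203940, Zm00001eb052670 and Zm00001eb406000 it was -2.21, -3.92 and -4.00. Zm00001eb025220, a match to WRKY35, had 2.60, 0.632 and 0.0597 FPKM in BV-3 susceptible libraries and no count in CK susceptible ones, which is at least 25.6-fold higher with 3 counts per empty library, and it rested mainly on BV-3 susceptible 1.

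Resistant against susceptible plants under BV-3 gave no call by edgeR among the members or all genes (0.0%), while DESeq2 called 16 (12.5%), against 13.8% of all genes. At an unadjusted p under 0.05 there were 28 members, whose share of 21.9% equals that of all genes, 21.9%. The groups did not overlap for 17 members that were higher and 23 that were lower in the resistant class (13.3 and 18%), against 35.5% of all genes in either direction. Zm00001eb052670 had the smallest p (-5.64 ± 1.16, edgeR adjusted p = 0.0634), followed by Zm00001eb203940 (-2.12 ± 0.49, adjusted p = 0.0634). Zm00001eb159410, a match to WRKY22, had 1.20, 1.32 and 1.49 FPKM in BV-3 resistant against 7.12, 10.1 and 3.12 in BV-3 susceptible libraries (-2.55 ± 0.64, adjusted p = 0.0671). Zm00001eb421820, a match to SUSIBA2, had 3.03, 6.42 and 1.54 FPKM in BV-3 resistant against 0.414, 0.420 and 0.456 in BV-3 susceptible libraries (2.68 ± 0.72, adjusted p = 0.0737). It shares its symbol with Zm00001eb419370, so reads may be divided between them. This comparison uses BV-3 libraries alone, but the spread is estimated over all 12. Fitted on the BV-3 libraries alone, edgeR called 18 members (14.5%), 4 higher and 14 lower in the resistant class, against 16.8% of all genes. Without CK susceptible 2 and 3, edgeR called 10 members (7.35%), 4 higher and 6 lower in the resistant class, against 9.79% of all genes.

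Between the classes under CK, edgeR called no member and no gene (0.0%), and DESeq2 called 4 members (3.12%), against 4.75% of all genes. The libraries labelled CK susceptible 2 and 3 lay with the resistant class by the line markers (94.4 and 95.0% of its markers above 1 CPM). The lack of calls therefore cannot show that the plant lines were alike under CK. At an unadjusted p under 0.05 there were 14 members (10.9%), against 17.4% of all genes, and the groups did not overlap for 14 higher and 1 lower members, against 21.4% of all genes in either direction. The smallest p with at least 1 FPKM in a group was that of Zm00001eb163840, a match to WRKY70, which had 15.5, 1.33 and 5.42 FPKM in CK resistant against 1.17, 1.27 and 1.07 in CK susceptible libraries (2.40 ± 0.81, edgeR adjusted p = 0.274). The difference of this gene was 2.34 without CK susceptible 2 and 3. The median difference over the members was 0.01, against 0.06 over all genes, and it changed sign with single libraries, at 0.36 without CK susceptible 1, 0.23 without CK resistant 2 and -0.39 without CK resistant 3.

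Some members followed the line markers and not the labels. NewGene_8092, a WRKY superfamily match without a Pfam domain and the only member among the line markers, had 0 FPKM in all BV-3 resistant and CK resistant libraries. It had 7.58, 8.74 and 10.5 FPKM in BV-3 susceptible libraries and 11.4, 0 and 0 FPKM in CK susceptible libraries 1, 2 and 3. It shares its symbol with Zm00001eb186280, so reads may be divided between them. Zm00001eb020400, a match to WRKY4, had 7.14, 4.86 and 6.43 FPKM in BV-3 resistant against 0, 0 and 0.233 in BV-3 susceptible libraries, and 2.73, 0.982 and 5.91 in CK resistant against 0.158, 4.82 and 4.2 in CK susceptible libraries. It shares its symbol with Zm00001eb020390, so reads may be divided between them. Zm00001eb020390 did not follow the markers, with 0.744, 0.895 and 1.55 FPKM in BV-3 susceptible and 1.53, 0.905 and 0.534 in CK susceptible libraries. NewGene_7415, a match to WRKY65, had no count in the BV-3 susceptible libraries and CK susceptible 1, and between 0.285 and 2.01 FPKM in the other 8 libraries. None of NewGene_8092, Zm00001eb020400 and NewGene_7415 was called for BV-3 against CK in susceptible plants by edgeR. Zm00001eb347870, which was called lower there, showed a like order of libraries, with no count in the BV-3 susceptible libraries, 0.0386 FPKM in CK susceptible 1 and 0.446 and 0.518 FPKM in CK susceptible 2 and 3. Both classes were counted on the same gene models, so a gene without counts cannot be told apart from one whose reads did not map.

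By symbol, 128 members were found among the RefSeq genes of Zm-B73-REFERENCE-NAM-5.0, and 14 of them sat directly beside another member, in 6 blocks. The largest block held 4 group III matches in a row. Zm00001eb149550 and Zm00001eb149570, a match to tomato WRKY70, averaged 45.9 ± 17.7 and 115.9 ± 55.9 FPKM in BV-3 susceptible against 5.07 ± 3.19 and 23.8 ± 19.3 in CK susceptible libraries (SD, n = 3). The next in line, Zm00001eb149580 and Zm00001eb149600, averaged 0.0423 and 0.0649 FPKM over the 12 libraries. In the pair Zm00001eb310260 and Zm00001eb310270, matches to WRKY30 and WRKY53, the means over all libraries were 23.9 and 169.9 FPKM. The pair Zm00001eb121600 and Zm00001eb121610, matches to WRKY50 and WRKY72, had close means of 1.57 and 1.76 FPKM.

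Genes for proteins known to work with WRKY factors, and for defence proteins such as chitinases, were counted from the descriptions. Of 28 tested VQ motif genes, 3 of which are members, 1 was called higher and none lower for BV-3 against CK in susceptible plants (edgeR), with a median log2 fold change of 0.80. Of 26 tested MAP kinase cascade genes 5 were higher and 1 lower (median 0.51), of 8 NPR coactivator genes 1 was higher and none lower (median 1.21), and of 65 calmodulin genes 2 were higher and 1 lower (median 0.61). None of 37 tested genes for pathogenesis-related proteins, chitinases and thaumatin-like proteins was called (edgeR), 9 had an unadjusted p under 0.05 (26.7% of all genes did), and the median was 0.97. Over all genes, 2.3% were called higher and 3.9% lower in this comparison. These medians lie above that of all genes, 0.07, and below that of the WRKY genes, 1.41. In resistant plants edgeR called none of these genes. The medians there were 1.16 for VQ, 0.18 for MAP kinase, 0.42 for NPR, 0.29 for calmodulin and 0.56 for pathogenesis-related genes. The WRKY genes had a median of 0.64 in resistant plants, below that of the VQ genes, and all genes had -0.07.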

How the data were processed

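The authors deposited one table with a raw count and an FPKM value per gene and library, per the file headers. Strand-specific libraries of poly(A)-selected RNA were sequenced in pairs, per the labels' protocols. The submitters' processing notes name the build B73 RefGen version 4. Aligner, counter and strand setting: not given in the sources used here. Reads of near-identical or overlapping genes may therefore be misassigned. Of 52934 lines, 2 named no gene and were dropped. The deposited counts of all 12 libraries were fitted as 4 group means with edgeR 4.0.16 (R 4.3.3) after TMM scaling and edgeR's filter on low counts (34291 genes), with p-values adjusted over all of these by the Benjamini-Hochberg method. The code was tested on simulated data with known changes. Values are deposited FPKM as mean ± SD, and fold changes are log2 ± SE derived from the F value. P-values measure the spread between these libraries. Alternatives used limma 3.58.1 on log2(FPKM + 1) or log2(FPKM + 0.1) and DESeq2 1.42.0.

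The members, gene lists and tests were chosen with earlier results of these data known. Named genes were the called members (up to 15 per comparison and direction, by p), the 6 of smallest p with at least 1 FPKM in the higher group where fewer than 5 were called, the 8 of highest mean, and members of listed WRKY numbers. Family groups, clock genes and line-marker members were added after the values were seen. In the difference of the effects, at least 1 FPKM in any group was asked. Line markers were above 2 CPM in all 3 BV-3 libraries of one class with at most 2 counts in each of the other. Replicate pairs differed beyond sampling noise. No sequences are shown.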

Additional observations from a re-analysis of the deposited data

How the results depend on the processing

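Counts of called WRKY genes moved with the processing more than their direction did. For BV-3 against CK in susceptible plants (14 by edgeR), DESeq2 called 45, the fit on these 6 libraries alone 9, and the fits without 2 CK susceptible libraries, or also without CK resistant 2, called 0; leaving out 1 library gave 0 to 41. For the mean of both classes (19), the values were 48 with DESeq2, 0 and 0 without those libraries, and 0 to 35 leaving out 1 library. Most same-numbered libraries of different groups were not correlated (3 of 18 pairs above 0.1). In the resistant class, however, CK and BV-3 replicates 1 and 2 correlated at 0.369 and 0.448, the highest of all pairs between groups. Replicates 3 of that class stood at -0.0622. With a replicate block the counts were 7 in susceptible plants (5.47%, against 1.59% of all genes), 12 for the mean (9.38%, against 2.03%) and 0 in resistant plants. In resistant plants (0), DESeq2 called 9. For the difference of the effects (0), DESeq2 called 5, and leaving out 1 library gave 0 to 3. Between the classes under BV-3 (0), DESeq2 called 16, limma 7 on log2(FPKM + 1), 9 on log2(FPKM + 0.1) and 4 without a filter, edgeR 10 without 2 CK susceptible libraries, 17 also without CK resistant 2 and 18 on these libraries alone, and leaving out 1 library gave 0 to 10. Between the classes under CK (0), DESeq2 called 4, and edgeR 2 and 1 without those libraries. The log2 difference of Zm00001eb015320 between the classes under CK, 1.44, reversed to -0.11 without the 3 libraries. For BV-3 against CK, DESeq2 called 35.2% of tested members in susceptible plants (20.4% of all genes) and 37.5% for the mean (20.5%). The fit on the susceptible libraries alone called 8.04%, against 4.43% of all genes. Between the classes under BV-3, members lay below all genes with DESeq2 (12.5 against 13.8%) and on the BV-3 libraries alone (14.5 against 16.8%). With limma the shares were 5.47 against 5.66%, 7.03 against 8.98% and 2.92 against 3.11%. The cause of the changes between settings was not tested. Every member called by edgeR for BV-3 against CK kept its direction in every setting that tested it. A group of 3 libraries at this depth limits the precision of genes under 1 FPKM, and where 2 CK susceptible libraries are left out the lone library is assumed to vary like the other groups.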
